A study of Mus musculus with 5 samples.

Results

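The genes covered by direct RNA sequencing of mouse embryonic stem cells (mESCs) with and without METTL3 inhibition were described here, gene by gene, for their m6A and their read depth. Positions with more than 25 valid reads in both libraries were assigned to the exons of GENCODE M21 genes on the strand of the call (mm10). A gene was measured when it held at least 50 such adenosines, and 2210 of the 2524 genes with any used position met this rule. A site was a position with a methylation level of at least 25% in DMSO, where the level is the share of valid reads called m6A. The 1555 measured genes with a site are called methylated and the other 655 unmethylated.

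The study compared mESCs treated with the METTL3 inhibitor STM2457 with a DMSO control, and wild-type mESCs with Mettl5-KO clones. STM2457 was given at 30 μM for 48 h and the control received 0.025% v/v DMSO. Each condition was 1 library, so no value below has a replicate check, and both libraries carry the same batch label and were run together on a shared flow cell after barcoding. The labels give both as WT. The methods give their cells as an E14 line that carried, in both conditions, the reporters 2C::3xtbGFP-PEST and Zscan4::mCherry-PEST, an uninduced Dox::APOBEC1-YTH-HA-IRES-tdiRFP transgene, and a degradation tag on both copies of METTL3 (METTL3-FKBP12F36V), also not induced. The WT library and the 2 Mettl5-KO clones came from another set of cells sequenced separately, with 1 library each. They serve here to show how depth varied between libraries that saw no inhibitor. The WT library also serves as a second way to choose sites and to class genes.

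N6-methyladenosine is placed on mRNA mainly by METTL3 in complex with METTL14, at adenosines within the DRACH motif, where D is A, G or T in DNA letters, R is A or G and H is A, C or T. It gathers in long exons and around stop codons, and reader proteins of the YTH family bind it and promote mRNA decay. STM2457 occupies the pocket of METTL3 that holds the methyl donor S-adenosylmethionine, which blocks the methylation of newly made RNA. A second enzyme, METTL16, methylates hairpins in the 3′ UTR of Mat2a, whose product makes S-adenosylmethionine.

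The stretches below hold the site of highest DMSO level in each of the 5 genes with the most summed m6A, shown because these genes carry the most m6A per molecule. Capitals mark the 5-mer centred on the methylated adenosine, bases run 5′ to 3′ on the RNA strand in DNA letters, and the windows come from the GENCODE M21 transcripts.
Taf5l: gcagatgtGGACTgtgtcaaa
Cdc42ep4: atggacaaGGACCagtggggc
Ints5: tcattgttGGACAttaaccgg
Nup62: agcagctgGGACTgccacagg
Dyrk3: ggcagcaaAGACTgggcaacc
All 5 were DRACH 5-mers in coding sequence, and in DMSO their levels lay between 97.5% and 100%. After STM2457 the Nup62 adenosine (chromosome 7, position 44829538, plus strand, exon 2) fell from 98.3% of 121 reads (exact 95% interval 94.2 to 99.8) to 37.1% of 124 (28.6 to 46.2). The Cdc42ep4 adenosine (chromosome 11, position 113728908, minus strand, exon 2) fell from 97.5% of 40 reads to 42.9% of 35, and the Dyrk3 adenosine (chromosome 1, position 131128993, minus strand, exon 3) from 100% of 55 to 43.5% of 46. The Taf5l adenosine (chromosome 8, position 123997790, minus strand, exon 5) read 100% of 51 and 93.8% of 48, and the Ints5 adenosine (chromosome 19, position 8896864, plus strand, exon 2) 100% of 38 and 94.6% of 37. Neither of these passed Fisher's exact test (adjusted p = 0.116 and 0.25). All intervals and tests on reads cover counting error only.

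The next 5 windows hold the highest site of the genes with 3 or more sites that lost the largest share of their m6A, and serve as the contrast to the windows that follow them.
Ift46: tcctcctgGGACTgtgcttca
Grsf1: actggtaaGGACAttaatagc
Ckap4: acaacaaaGGACAggtggggg
Atp6ap1: acagccatGAACTtgaggttc
Eef1akmt4: gacaacgaGGACTtcctcagt
These are DRACH 5-mers too, 4 in 3′ UTRs and the Eef1akmt4 one in coding sequence, with DMSO levels between 35.4% and 59.3%. At the Ift46 site (chromosome 9, position 44790594) 0 of 32 reads were methylated after STM2457, which allows a level of up to 10.9% (exact 95% bound). The other 4 sites kept between 2.50% and 4.35% of reads.

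The windows of the 5 genes with 3 or more sites that lost the least are shown because 3 of them hold no DRACH site at all.
Psmc5: tcaagaagCTATGgaagtgag
Ppp1ca: catgggtcACACTggcctctc
Mat2a: gtgtagctACAGAgaaaccag
Ckb: cgctgtagAGACTtctgtcgc
Mrpl45: agacaaaaAGACTcctgaggt
The other 4 sites of Mat2a, all in the 3′ UTR in exon 9 on the minus strand of chromosome 6, had the same 5-mer, so they are given as well, by position.
Mat2a at 72432953: ggtgtggtACAGAgaagccag
Mat2a at 72433061: ggtgtcctACAGAaaaacctt
Mat2a at 72433172: gcgtaagtACAGAgaagccat
Mat2a at 72434250: cgtaggttACAGAgaagcctt
The letters TACAGA stood at all 5 Mat2a sites, and GA followed them at 4 of the 5.

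The libraries held 71574467 valid calls (DMSO) and 54051900 (STM2457), so the STM2457 table was 75.5% as large, and calls that failed the caller's confidence filter were 8.87% and 8.85% of the total. The median measured gene was read 66.5 times in DMSO and 54 times in STM2457. Of 21 listed embryonic stem cell markers 13 had a used position and 12 were measured, among them Pou5f1, Sox2, Nanog, Klf2 and Esrrb. None of the listed 2-cell-like, formative or mesoderm markers had a used position in both libraries, and of the primitive endoderm, neuroectoderm and fibroblast lists only Sparc, Tubb3 and Fn1 did.

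Methylated genes carried a median of 3 sites and at most 23. Exactly 1 site was found in 401 genes, 2 sites in 317, 3 or more in 837 and 10 or more in 83. The tenth of methylated genes with the most sites held 29.4% of the 5805 sites. Summing the levels of a gene's sites gives the number of m6A per molecule over its covered part, here called summed m6A. Its median over methylated genes was 1.47 in DMSO (quartiles 0.712 and 2.80, range 0.25 to 15.02). Summed m6A counts only covered adenosines past the site threshold, and across the 1555 genes it ran with the number of used positions (Pearson's r = 0.33, Spearman's rho = 0.34, across genes, which are not replicates).

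Genes with few exons were the most densely methylated. Exons were counted in 1 transcript per gene, chosen from the annotation and not by the reads. Among protein-coding genes with a single exon there, 37 of 44 were methylated (84.1%), with 2.59 sites per 100 used positions and a median summed m6A of 5.17. With 2 to 4 exons 76.6% of 470 genes were methylated at 1.92 sites per 100 positions, with 5 to 9 exons 69.8% of 875 at 1.34, and with 10 or more exons 69.0% of 768 at 1.02. The median number of used positions was 257, 141, 148 and 180 in the same order. Neither the percent methylated nor summed m6A is corrected for it. Epop, a Polycomb-associated protein of stem cells, led the single-exon genes with 19 sites and 12.3 m6A per molecule in DMSO and 4.79 in STM2457, and is named after its value was seen. The 3′ UTR held 52.0% of used positions and 67.2% of sites, and coding sequence 44.9% and 31.1%.

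After STM2457 the median summed m6A of the same sites was 0.328 (quartiles 0.128 and 0.785, range 0 to 6.26). Summed over all methylated genes it went from 3306 to 927.3, a loss of 71.9%. The median gene lost 78.0% (quartiles 68.4 and 85.4), and 1462 of the 1555 genes (94.0%) lost at least 50%. The number of genes with at least 1 m6A per molecule went from 977 to 281. In 1477 genes every site was lower in STM2457.

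**Figure D1:**
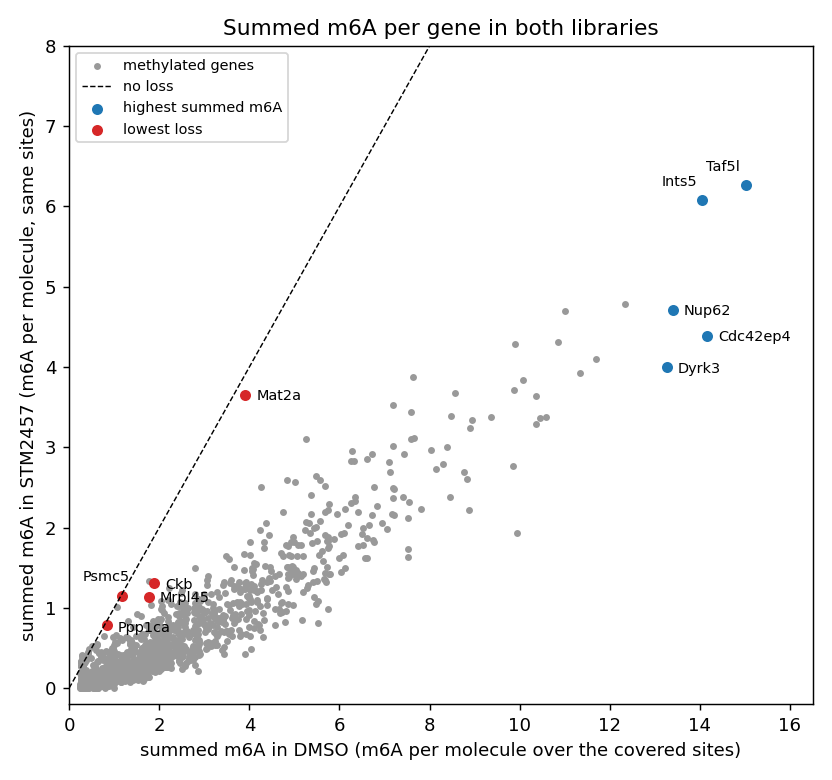
Summed m6A per methylated gene in DMSO (x axis) and STM2457 (y axis, its own scale), both in m6A per molecule over the covered sites, with 1 library each. Each grey point is a gene and the dashed line marks no loss. The genes with the most m6A (blue) kept 3.99 to 6.26 m6A per molecule, and Mat2a (red) lies close to the dashed line at 3.91 and 3.65.

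Fisher's exact test (two-sided, Benjamini-Hochberg adjusted over all 6130 sites of the table, sites outside measured genes included) called 5705 sites lower in STM2457 (93.1% of those tested) and 1 higher (0.0163%). The test compares the libraries, not the conditions, and sites chosen for a high level in DMSO leave less room for a higher call. With sites chosen in the WT library, 1069 of 1231 were called lower and 5 higher. On measured genes 5406 of 5805 sites were called lower. Every site was called lower in 1231 methylated genes (79.2%), and at least 1 site in 1495. In the other 60 genes no site was called, and 52 of these had a single site. Their median loss was 9.62%. Their median gene depth was 117 reads in DMSO and 77 in STM2457, above that of the median measured gene. The test uses the reads at the site, which can be fewer, so gene depth does not show how many reads it had.

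The unmethylated genes and the adenosines between sites give the background. At non-site adenosines of unmethylated genes 0.897% of valid calls were m6A in DMSO and 0.747% in STM2457, and at non-site adenosines of methylated genes 1.046% and 0.763%. At the sites themselves the share went from 55.7% to 15.3%. Sites made up 31.2% of all m6A calls on measured genes in DMSO and 15.54% in STM2457.

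The share lost was smaller in genes with more m6A. The median loss was 83.9% in the 578 genes below 1 summed m6A, 79.5% in the 386 genes from 1 to 2, 75.04% in the 358 genes from 2 to 4 and 69.1% in the 233 genes with 4 or more. Choosing sites in DMSO favours chance highs there, most at low levels. The same medians were therefore also computed with sites taken from the WT library. Classes were again by summed m6A in DMSO, over those sites. DMSO thus still set both the class of a gene and the level its loss is counted from. With WT sites the medians were 78.8% (216 genes), 77.4% (101), 71.8% (60) and 66.8% (37). By the level of single sites the loss did not fall step by step, but it was smallest in the highest bin. Sites at 25 to 40% in DMSO lost 78.4%, those at 40 to 60% lost 81.0%, those at 60 to 80% lost 78.3% and those at 80% or more lost 59.5%, from a mean of 90.5% to 36.6%.

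**Figure D2:**
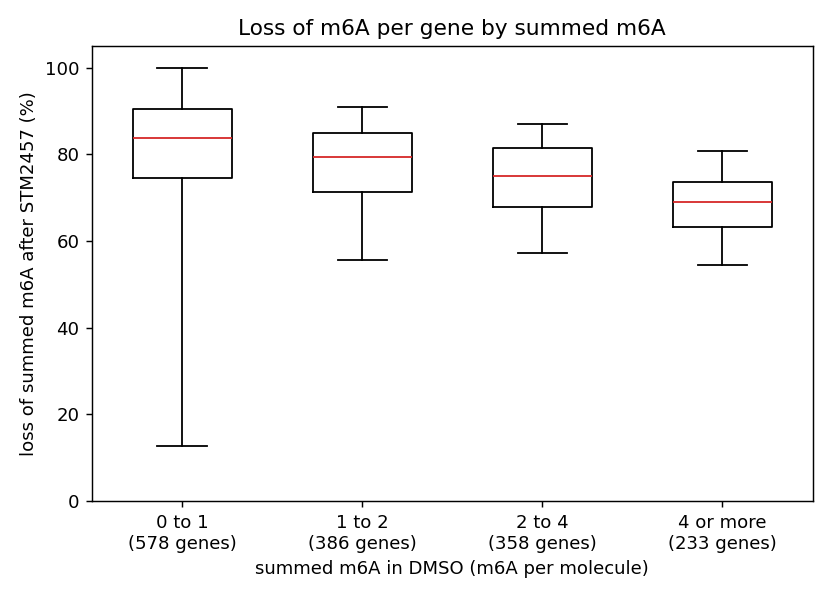
Loss of summed m6A after STM2457 in percent of DMSO (y axis) for methylated genes in classes of summed m6A in DMSO (x axis, m6A per molecule). Boxes give quartiles, red lines medians and whiskers the 5th and 95th percentiles over genes. The medians step down from 83.9% to 69.1%.

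In genes with 3 or more sites, the measured loss also differed between the sites of a gene. The site that lost least in such a gene lost 57.6% at the median over the 837 genes, and the one that lost most 91.7%. These are the extremes of each gene, so counting error alone would also part them, more so with more sites. Its share in the gap was not tested. After treatment 1210 sites (20.8%), on 659 genes, still read 25% or more. A site of 50% or more was left in 232 genes and a site of 80% or more in 40.

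The 5 genes with the most summed m6A were Taf5l, a subunit of histone acetyltransferase complexes, Cdc42ep4, an effector of the GTPase Cdc42, Ints5, a subunit of the Integrator complex, Nup62 of the nuclear pore, and the kinase Dyrk3. Taf5l held 15.02 ± 0.273 m6A per molecule (counting SE) over 23 sites in DMSO and 6.26 ± 0.262 in STM2457. Cdc42ep4, also with 23 sites, held 14.2 ± 0.32 and 4.39 ± 0.265, and Ints5, with 18 sites, 14.04 ± 0.232 and 6.08 ± 0.294. Nup62, with 20 sites and the deepest of the 5 at 123 and 117 reads, held 13.4 ± 0.164 and 4.71 ± 0.146, and Dyrk3, with 21 sites, 13.3 ± 0.264 and 3.99 ± 0.234. Their losses lay between 56.7% and 69.9%, all below the median gene's 78.0%. Each gene had between 17 and 22 sites called lower. All 5 still held more m6A per molecule in STM2457 than the median methylated gene did in DMSO.

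The largest losses among genes with 3 or more sites were found in genes of modest m6A. Ift46, a component of intraflagellar transport, went from 0.99 m6A per molecule to 0 over 3 sites read about 50 and 31 times. Grsf1, an RNA-binding protein of mitochondrial RNA granules, lost 94.5%, Ckap4, a membrane protein of the endoplasmic reticulum, 94.4%, Atp6ap1, an accessory subunit of the vacuolar proton pump, 94.2% and Eef1akmt4, a methyltransferase of elongation factor 1A, 93.4%. Every site of these 5 genes was called lower and every one was a DRACH site.

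At the other end, Mat2a held 3.91 ± 0.0813 m6A per molecule in DMSO and 3.65 ± 0.0955 in STM2457, a loss of 6.70%. Its 5 ACAGA sites, printed above, read 67.8%, 82.7%, 71.0%, 87.8% and 82.1% in DMSO and 57.5%, 81.8%, 61.5%, 83.5% and 80.9% in STM2457, on 78 to 152 reads. None was called lower, and the lowest adjusted p of the 5 was 0.085. Psmc5, an ATPase of the proteasome, held 1.17 and 1.15 m6A per molecule over 3 sites, and Ppp1ca, the catalytic subunit of protein phosphatase 1, 0.836 and 0.792 over 3 sites. None of their 6 sites was a DRACH site and none was called lower.

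The loss of Psmc5 depended on the sites chosen, and was 45.1% with the sites taken from WT. Ckb and Mrpl45 combined both kinds of site, and with DRACH sites alone they lost 94.8% and 60.3%. In Ckb, the brain-type creatine kinase, the only DRACH site (AGACT, printed above) fell from 61.8% of 207 reads to 3.23% of 155 (Fisher's exact test, adjusted p = 1.2e-33). Its other 3 sites read 41.9%, 58.6% and 26.4% in DMSO and 44.9%, 44.4% and 38.0% in STM2457, with no call. In Mrpl45, of the mitochondrial ribosome, the printed site fell from 96.8% of 126 reads to 46.6% of 116 and a second DRACH site from 33.6% to 5.22%, while a site at GCAGC read 45.8% of 48 reads and 62.2% of 37.

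The motif divided genes in the same way across the table. DRACH 5-mers were 8.56% of used positions and 90.01% of sites, and lost 73.4% of their m6A, against 53.7% for the 580 sites outside the motif. The 1112 genes whose sites were all DRACH lost a median of 81.2%, the 375 with both kinds 69.6% and the 68 with no DRACH site 20.0%. The sites outside the motif were not alike. The commonest, GGACG with 127 sites, averaged 52.3% and then 11.3%, and GGATT with 50 sites 42.5% and then 8.05%. CTATG, with 25 sites, averaged 32.8% and then 27.9%, and CCACG, with 18 sites, 35.2% and then 29.7%.

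In 18 genes summed m6A was higher after STM2457 than before. They held 19 sites, 1 of them in a DRACH 5-mer, and 17 of the genes had a single site. No site was called higher, and summed m6A in DMSO did not exceed 0.508 in any of them. They include Rack1, Calm2, H3f3b and Rpl13a, named after their values were seen. The only site called higher lay in Actg1, cytoplasmic gamma-actin, which as a gene lost 58.6% over 4 sites. This adenosine (chromosome 11, position 120348046, minus strand, coding exon 2, 5-mer GCATG) read 32.7% of 156 reads in DMSO and 53.01% of 83 in STM2457, with an adjusted p of 0.00404 by Fisher's exact test.

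The second measure was read depth, the median of valid reads over a gene's used positions. Each library was scaled to its valid calls, and the change is given as the log2 ratio of STM2457 to DMSO. In these bulk samples a smaller share of cells with an RNA and less RNA per cell cannot be told apart. The median measured gene had a log2 ratio of 0.09, and scaling to pass reads in place of valid calls would lower every ratio by a further 0.12. Comparisons below are therefore made between genes, where the scaling cancels. Where a gene is called higher or lower, this holds under the scaling to valid calls.

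Methylated genes had a higher depth ratio than unmethylated genes. The median log2 ratio was 0.15 in methylated genes (quartiles -0.14 and 0.44, 63 reads in DMSO and 52 in STM2457 at the median) and -0.04 in unmethylated genes (quartiles -0.31 and 0.30, 79 and 60 reads). The difference was 0.19, smaller than the spread of either class. By summed m6A the medians were -0.04, 0.08, 0.13, 0.16 and 0.26 from unmethylated genes to genes with 4 or more m6A per molecule. The share of genes above 0, which depends on the scaling (here to valid calls), went from 46.9% through 58.8%, 62.2% and 67.9% to 72.1%. With 1 library per condition this order has no test.

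The difference between methylated and unmethylated genes was 0.17 at 40 to 60 reads of scaled depth, 0.14 at 60 to 100, 0.16 at 100 to 200 and 0.19 at 200 or more. Below 40 reads both classes stood at 0.35, a range where the rule of more than 25 valid reads in the smaller STM2457 library as well keeps only genes not much lower there. At 100 reads or more it was also seen within bins of covered length, at 0.17 for genes covered over less than 400 bases and 0.30 for 700 to 1000 bases. By the length of the last exon it was 0.09 below 300 bases, 0.16 at 300 to 600, 0.25 at 600 to 1000, 0.15 at 1000 to 2000 and 0.08 at 2000 or more.

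Libraries without inhibitor were compared in the same way, with genes classed by their m6A in WT (317 unmethylated, 460 methylated). The difference between methylated and unmethylated genes was 0.0006 for clone 1 against WT, 0.03 for clone 2 against WT and -0.03 for clone 2 against clone 1. In the genes measured in both datasets and classed by WT, the difference for STM2457 against DMSO was 0.14 (398 methylated and 286 unmethylated genes). The 42 genes with 4 or more m6A per molecule in WT were, however, also high in the clones, with medians of 0.24 and 0.39 against WT and 0.14 between clones, beside 0.13, 0.17 and 0.07 for unmethylated genes. For STM2457 against DMSO under the same WT classes, the medians were 0.33 in the 31 genes with 4 or more and -0.07 in unmethylated genes. An excess in the most methylated genes was thus also seen between libraries without inhibitor, at a smaller size, and these differences were not tested.

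**Figure D3:**
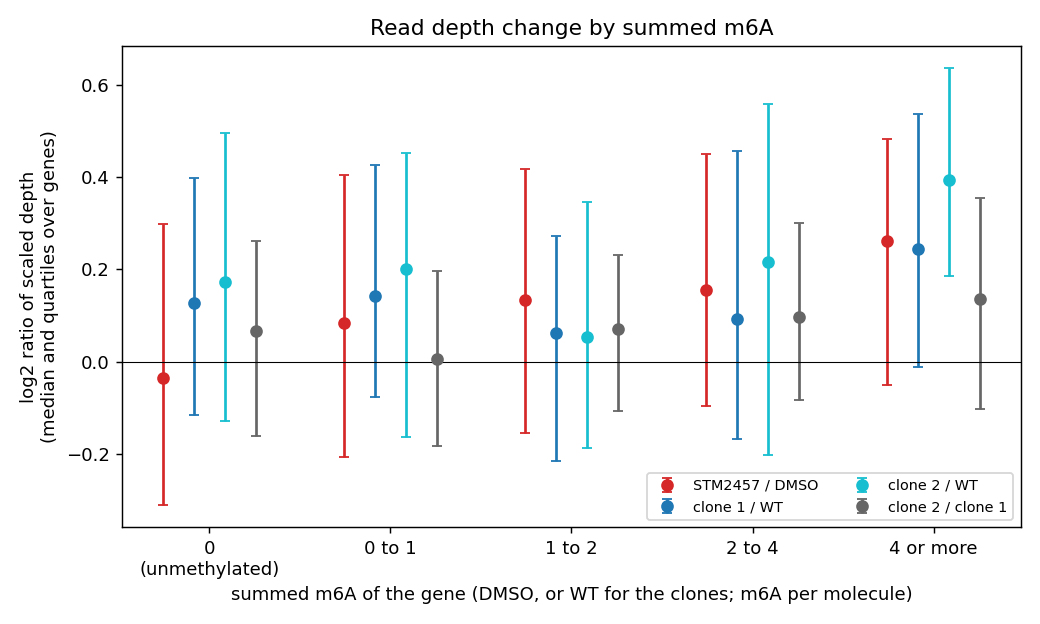
Median (points) and quartiles (bars) over genes of the log2 ratio of scaled depth (y axis) by summed m6A in m6A per molecule (x axis), for STM2457 against DMSO (red, classed by DMSO) and for 3 pairs of libraries without inhibitor (blue, cyan and grey, classed by WT). The red medians step from -0.04 to 0.26, and each of the other pairs has its highest median in the class of 4 or more.

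The depth ratio also depended on the place along the transcript. Counted from the covered base nearest the 3′ end, where reads begin, the median log2 ratio of methylated genes was 0.21 in the first 250 exonic bases and -0.01 at 2000 to 3000 bases. For unmethylated genes it was 0.03 and -0.23. The methylated genes were higher in each of the 6 bins. In genes covered that far, depth at 1000 to 1500 bases as a share of that in the first 250 was 93.1% in DMSO and 86.2% in STM2457 for methylated genes and 93.9% and 89.9% for unmethylated genes. Distance thus moved with the depth ratio in both classes. Its part in the ratios of single genes was not tested.

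**Figure D4:**
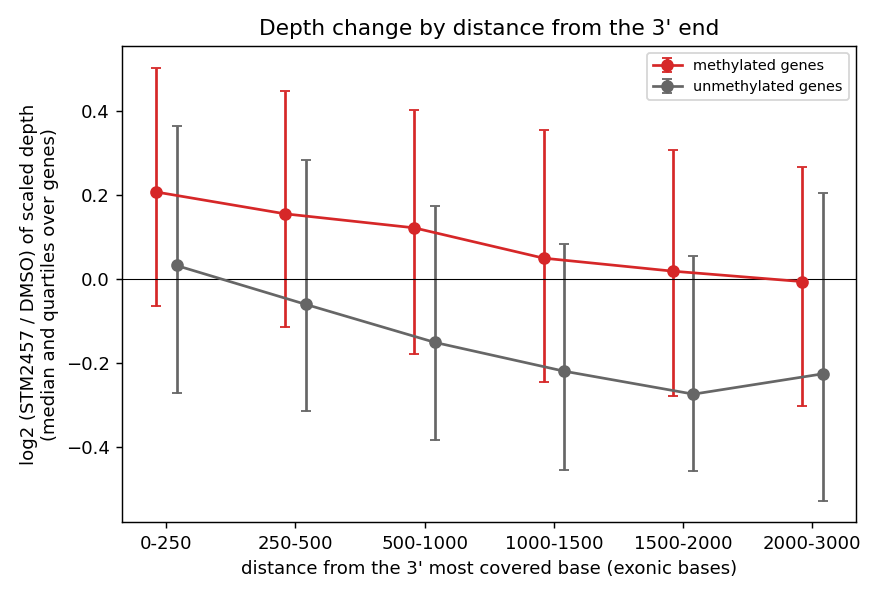
Median (points) and quartiles (bars) over genes of the log2 ratio of scaled depth, STM2457 against DMSO (y axis), by distance in exonic bases from the covered base nearest the 3′ end (x axis). The line for methylated genes (red) runs above that for unmethylated genes (grey) in all 6 bins, from 0.21 against 0.03 to -0.01 against -0.23.

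Depth was not even between the exons of a gene. Of the 884 measured genes with 2 or more covered exons, 73 (8.26%) had over 3-fold between the deepest and the shallowest, and the other 1326 measured genes were covered in a single exon. In Mcm5 exon 17 was read 470 times at a log2 ratio of -0.64, and exons 2 to 4 35 to 37 times at 0.20 to 0.28. Over all genes last exons had a median log2 ratio of 0.13 and other exons -0.13. A gene's median depth is therefore the depth of its covered part, and not a measure of its RNA as a whole. With the deepest exon taken for each gene, the difference between methylated and unmethylated genes was again 0.19.

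Across the 1555 methylated genes summed m6A and the log2 depth ratio were weakly related (Pearson's r = 0.11, Spearman's rho = 0.12). In the 441 of them with a scaled depth of at least 100 reads the values were 0.20 and 0.22. The share of m6A lost had a similarly weak Pearson's r with the depth ratio (0.12), and nearly no relation by rank (rho = 0.05). These values are across genes that share 2 libraries, and both measures use the same reads.

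In 77 measured genes (3.48%) depth was at least 2-fold higher in STM2457, and in 13 (0.588%) at least 2-fold lower. These counts are not like for like. The rule of more than 25 valid reads in both libraries, with the smaller table for STM2457, keeps shallow genes out of the lower count. In genes with a scaled depth of at least 100 reads, 17 were higher and 2 lower. The higher genes were 53 methylated (3.41% of their class) and 24 unmethylated (3.66%), and the lower genes 7 methylated (0.45%) and 6 unmethylated (0.916%). The share of methylated genes among the higher ones was thus near that of all measured genes. Scaled to pass reads, the counts were 47 higher and 25 lower, so 65.3% of the genes past 2-fold were higher in place of 85.6%. Scaled to the median ratio over genes they were 50 and 22 (69.4%).

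Among methylated genes averaging at least 50 reads, the highest ratio was found in Med21, a Mediator subunit, with 31 reads in DMSO and 70 in STM2457 (92.7 after scaling), a log2 ratio of 1.58 (exact 95% counting interval 0.95 to 2.24). Pop7, of the RNase P complex, had 40 and 85 reads (1.49), Glmp, a lysosomal membrane protein, 41 and 86 (1.47), Cse1l, which exports importin alpha from the nucleus, 35 and 72 (1.45) and Lrpap1, a chaperone of lipoprotein receptors, 67 and 137 (1.44). These 5 genes carried 1.37 to 5.17 m6A per molecule and lost 65.6 to 83.7% of it. They were shallow in DMSO, between 31 and 67 reads, and Med21, Pop7, Glmp and Cse1l passed the limit of 50 only through STM2457, so the ranking is a description of genes partly chosen by the change itself.

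The lowest ratio among methylated genes was that of Rbmxl2, an intron-less relative of the splicing factor Rbmx, with 126 and 30 reads, a log2 ratio of -1.67 (-2.29 to -1.08). Reads of related copies could be split in alignment, so its value is uncertain. Phb, prohibitin of the inner mitochondrial membrane, had 132 and 41 reads (-1.28), and H2afx, the histone variant H2A.X, 485 and 170 (-1.11, interval -1.37 to -0.85). Aspscr1, which tethers glucose transporter vesicles, had 93 and 33 reads (-1.09) and Elp3, the catalytic subunit of Elongator, 76 and 28 (-1.04). Each of these genes lost m6A as others did, by 65.8 to 84.6%, and every site in them was called lower.

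Unmethylated genes reached the same range. Cyba, a subunit of NADPH oxidase, had 59 reads in DMSO and 141.5 in STM2457 (log2 ratio 1.67), the ribosomal protein gene Rps9 52 and 124 (1.66), the protease inhibitor Cstb 161 and 366 (1.59), the calcium-binding S100a6 79 and 175 (1.55) and Rpl22 52.5 and 103 (1.38). On the lower side stood the initiation factor Eif2d with 107.5 and 33 reads (-1.30), the G protein subunit Gng3 with 97 and 30 (-1.29), the deubiquitinase Uchl1 with 99.5 and 31 (-1.28), the lysophosphatidic acid phosphatase Acp6 with 143.5 and 48 (-1.17) and galactokinase, Galk1, with 136 and 46 (-1.16). Over the 3′-most 500 exonic bases the log2 ratio of Rpl22 was 0.06. Eif2d, Gng3 and Uchl1, like Rbmxl2, Aspscr1, Elp3, Med21, Pop7, Glmp and Cse1l, had fewer than 50 reads in a library even after scaling. They reached the depth limit through the other library.

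Of the 12 measured stem cell markers 10 were methylated, where 70.4% of all measured genes were, and they held 61 sites and lost a median of 71.7%. Sox2 carried 7.43 m6A per molecule in DMSO over 12 sites and lost 60.8%, Klf2 6.49 over 12 sites (70.4%), Esrrb 5.20 over 9 sites (77.0%) and Zfp42, also known as Rex1, 4.18 over 7 sites (73.7%). Pou5f1, which encodes Oct4, and Dppa5a had no site despite 960 and 4976.5 reads in DMSO. None of the 12 passed 2-fold in depth in either direction, as was the case for most measured genes (3.48% were higher and 0.588% lower). The median log2 ratio of the 12 was -0.09, against 0.09 for all measured genes, and 3 lay above the latter value. Nanog was the lowest at 125 and 55 reads (-0.78), and Pou5f1 had 960 and 567 (-0.35). L1td1 was the highest at 29 and 35 reads (0.68), and Nr0b1 had 49 and 58 (0.65). These 4 were named after their values were seen. Among markers of other cells, Fn1 had 36 and 55 reads (1.02), Sparc 82 and 88 (0.51) and Tubb3 48 and 32 (-0.18). The part of other cell types in any result was not tested.

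Genes of the m6A pathway could be described for 6 of 27 listed, and Mettl3 itself was not measured. Ythdf1, a cytoplasmic reader, held 10.1 m6A per molecule over 16 sites and lost 61.9%, and Mettl16, Igf2bp1 and Fto, an RNA demethylase, held 1.35, 0.725 and 1.01 and lost 89.0%, 91.9% and 72.5%. The depth ratios of these 4 lay between 0.09 and 0.47. Of 10 measured genes of S-adenosylmethionine and one-carbon metabolism 9 were methylated (70.4% over all measured genes) and lost a median of 71.6%, with a median log2 depth ratio of -0.21. Mat2a was read 139 and 104.5 times, a log2 ratio of -0.01. Mthfd2, with 3.60 m6A per molecule, lost 62.7%. Shmt1, the cytosolic serine hydroxymethyltransferase, had 186 and 70 reads (-1.005, interval -1.42 to -0.60). It was the only member past 2-fold, where 3.48% of all measured genes were higher and 0.588% lower by that much. Psat1 lost 33.6% at its single site. The single site of Mthfd1, outside DRACH, read 28.1% in DMSO and 39.5% in STM2457, with no call.

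The p53 target list had 6 measured genes, of which 5 were methylated (70.4% over all measured genes) and lost a median of 80.7%. Their median log2 depth ratio was 0.49, and 4 of 6 were above the median of all genes. Cdkn1a, the p21 inhibitor of cyclin-dependent kinases, had 35 and 56 reads (1.08, interval 0.45 to 1.74), Phlda3, a repressor of Akt signalling, 58.5 and 66 (0.58), Aen 100 and 100 (0.41) and Bax, an effector of apoptosis, 544 and 434 (0.08). Phlda3 carried 6.19 m6A per molecule over 9 sites and lost 67.1%. The unmethylated Ccng1 had 36 and 48 reads (0.82), and Gtse1, methylated at 1 site, 68 and 49 (-0.07), both named after their values were seen.

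Of 16 measured cell cycle genes 14 were methylated (70.4% over all measured genes), with a median loss of 79.6%, and 5 lay above the median depth ratio of all genes. Their median log2 ratio was -0.31. Cdk2 had 31 and 33 reads (0.50), Ccne1, which encodes cyclin E1, 214.5 and 138 (-0.23), the mitotic kinase Aurka 98 and 59 (-0.33) and Mcm5, of the replicative helicase, 282 and 150 (-0.51). The values of Mcm5 differ between its exons, as given above. No member reached 2-fold in either direction, which few of all measured genes did (3.48% higher and 0.588% lower).

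All 11 measured integrated stress response targets were methylated (70.4% over all measured genes), with a median loss of 78.7% and a median log2 depth ratio of 0.12. Trib3 carried 6.53 m6A per molecule, Slc7a5, an amino acid transporter, 5.76 and Nupr1 1.45, with depth ratios of 0.18, -0.11 and 1.08 on 35 and 30, 103 and 72, and 27 and 43 reads. Immediate early and growth control genes were the most methylated list, with a median of 4.83 m6A per molecule over 6 genes. Dusp6, a phosphatase of ERK, held 9.93 and lost 80.5%, Ier2 8.90 (63.6%), Jund 6.13 (63.6%) and Sgk1 3.53. Sgk1 had the lowest depth ratio of these at -0.79 on 64 and 28 reads. In the Wnt, BMP and LIF list, Nodal held 8.83 m6A per molecule and lost 70.5%, and Ctnnb1, beta-catenin, 2.50 and 62.3%, with depth ratios of -0.13 and 0.55.

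Of 31 measured genes with Rpl or Rps symbols 8 were methylated (1555 of 2210 over all genes), and the 4 with the most m6A were Rps19bp1, Rpl7l1, Rpl10l and Rps3, of which only Rps3 encodes a core subunit of the usual cytosolic ribosome. They held 3.33, 2.51, 1.88 and 1.42 m6A per molecule. The median log2 depth ratio of the 31 was 0.24, with 6 genes at least 2-fold higher (3.48% of all measured genes) and none lower (0.588%). The 6 include Rpl22, whose ratio was 0.06 over the 3′-most 500 bases. These genes have many processed copies in the genome, so their depth is uncertain. Of 15 measured translation initiation and elongation factors 8 were methylated (70.4% over all measured genes), with a median loss of 83.3%. Eif4g1 led them with 4.57 m6A per molecule, followed by Eef2 with 2.30. The median log2 ratio of the 15 was 0.23. Eef2 stood at -0.36 on 1890 and 1113 reads, Eif3b at -0.49 on 169 and 91, and Eif4a2 at 0.96 on 47 and 69. The 5 measured chromatin genes included 1 methylated gene, Eed (70.4% over all measured genes). The 3 interferon response genes included Bst2, which lost 47.3% at its single site, with no call. Mitochondrially encoded genes had no measured member.

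**Figure D5:**
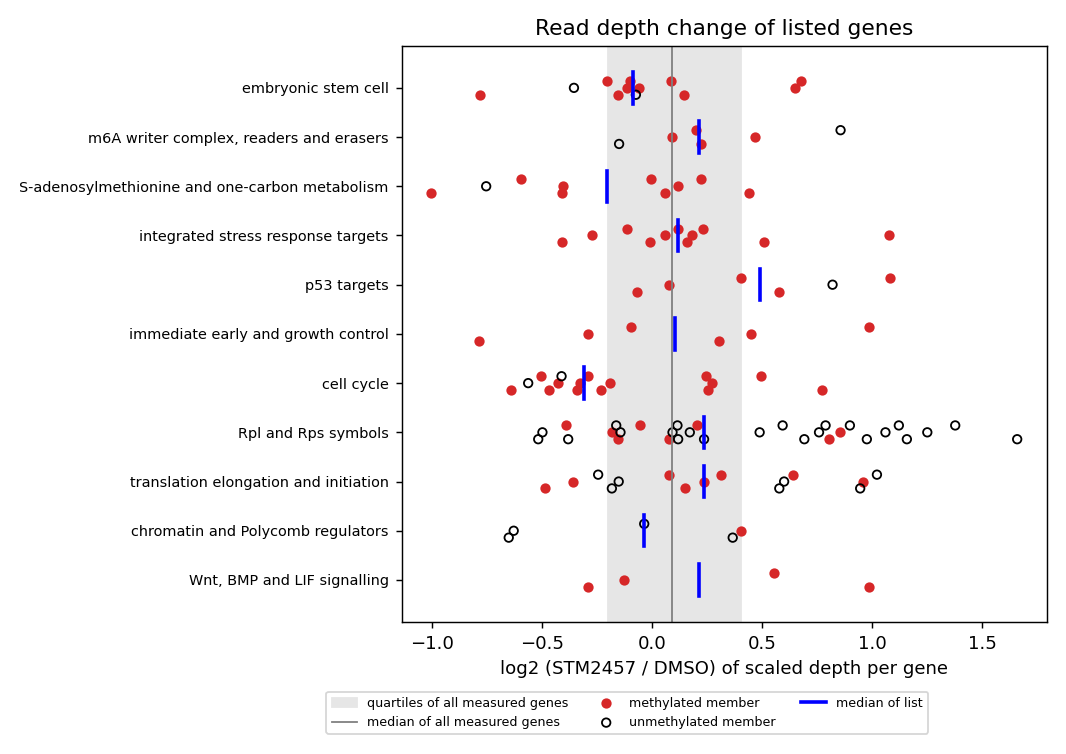
Log2 ratio of scaled depth, STM2457 against DMSO (x axis), for each measured member of the lists with at least 4 such members (y axis). Filled red points are methylated genes and open points unmethylated ones, blue bars give list medians, and the grey band and line give the quartiles and median (0.09) of all measured genes. The p53 target median lies highest at 0.49 and the cell cycle median lowest at -0.31.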

How the data were processed

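The authors used dorado to basecall demultiplexed nanopore direct RNA reads, to call m6A and to align them (mm10), counted calls with modkit pileup and deposited per-position counts of m6A, unmodified and failed calls with a percent modified. The labels name bedtools. STM2457 yielded fewer and shorter reads. Levels were recomputed from the counts (m6A over valid calls). Positions needed over 25 valid calls in both libraries and exons of 1 GENCODE M21 gene on the call strand. Genes needed 50 positions. Sites were tested with Fisher's exact test and Benjamini-Hochberg adjustment (Python 3.11.15, scipy 1.17.1, pandas 2.3.3, numpy 2.4.6). With 1 library per condition depth was described and not tested. A fixed rule named the 5 genes highest in summed m6A, the 5 highest and lowest in loss (3 or more sites), the 5 highest and lowest in depth ratio per class (mean depth 50 or more) and up to 4 per list, and exceptions are marked. Members and lists were chosen with earlier results of these data known. The procedures were tested on simulated data. Alternatives changed coverage, threshold, motif, assignment, scaling and depth measure. Single-library counts of reads cover counting error only.
One item is not reported here.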

Additional observations from a re-analysis of the deposited data

Results flagged for a closer look

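Outside the comparison above, 3622 used positions lay on no annotated exon of the call strand, and 34 of them were sites. On measured genes 5805 of 433298 used positions were sites, so sites were not more frequent off exons. The level of the 34 sites averaged 44.3% in DMSO and 12.2% in STM2457. Fisher's exact test called 29 of the 34 lower, where 93.1% of all sites tested were called lower. These sites drew attention because m6A signal was present in positions that the gene-level values do not use, and they have no control beyond the DMSO library.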

How the results depend on the processing

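The difference in depth between methylated and unmethylated genes stayed between 0.15 and 0.22 (log2) under every alternative setting of the processing. Scaling to pass reads or to the median ratio moves all genes alike, so these settings could not change it. The difference was 0.14 in the genes measured in both datasets and classed by WT. In some bins of depth and of last exon length it was smaller, as given above. In what follows sites are those on measured genes, while calls are out of all sites tested in the table. The median loss per gene moved to 80.3% at 50 or more valid calls (2588 sites in 792 genes, 2638 of 2752 called lower), 72.5% at a site threshold of 10% (12936 sites, 12 called higher), 74.99% at 50% (3128 sites, 3226 of 3295 called lower), 79.9% with DRACH sites alone, 79.5% with failed calls in the denominator, 74.8% with 200 or more positions per gene (3337 sites in 682 genes, 21 genes 2-fold higher and 4 lower) and 74.9% with sites chosen in WT (1140 sites in 414 genes, 1069 of 1231 called lower and 5 higher). Genes past 2-fold were 47 and 25 scaled to pass reads and 50 and 22 scaled to the median ratio, and 302 and 129 passed 1.5-fold. Alternatives added after seeing the data were depth of 100 reads or more (median loss 79.4%, 17 and 2 genes past 2-fold), RefSeq-linked exons, the deepest exon (79 and 13) and testing all 454540 positions (6253 lower, 12 higher). The loss of Psmc5 became -11.8% at a threshold of 50% and -21.7% with failed calls in the denominator, but 45.1% with sites chosen in WT. That of Ckb rose from 30.8% to between 60.4% and 94.8%, and that of Mrpl45 from 35.4% to between 51.9% and 60.3%, under the settings that dropped some of their sites. The log2 depth ratio of Rpl22 was 0.06 over the 3′-most 500 bases. The causes of these moves were not tested beyond the fewer or more sites each setting keeps. No paired analysis was possible because each condition has 1 library, and for the same reason no replicate could be left out. Depth limits the table to genes read over 25 times in both libraries, mostly near their 3′ ends.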
